A study of Homo sapiens with 4 samples.

Results

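SW480, a colorectal adenocarcinoma line labelled Dukes' type B, was compared with 3 other untreated colorectal cancer lines by H3K27ac HiChIP, a method that ligates DNA ends held close together in fixed nuclei and then pulls down fragments carrying acetylated lysine 27 of histone H3. The other lines were HCT116 (colorectal carcinoma), LS513 (Dukes' type C carcinoma) and SW620 (Dukes' type C adenocarcinoma), and each line had 1 library. SW480 and SW620 are known to come from a primary tumour and a later metastasis of the same patient. All 4 lines came from ATCC and were labelled as untreated. Counts were paired-end tags (PETs) joining anchors, which are segments listed in the deposited tables. The SW480 library had 9350 anchors, of 77971 in the 4 libraries. They were ranked by PETs that join an anchor to itself (same-anchor PETs) and by the summed PETs of the filtered loops that end at an anchor (loop PETs), and the leading 100 of each ranking were described. The rankings shared 41 anchors, so that 159 anchors were in at least 1 of them. The cut fell among ties: 4 anchors had the 118 same-anchor PETs of rank 100 and 1 of them was inside, and 10 had the 26 loop PETs of rank 100 and 2 were inside.

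H3K27ac marks active promoters and enhancers. Same-anchor PETs follow how strongly a stretch is pulled down and how long it is, while loop PETs follow contacts between separate stretches. A hub is an anchor that joins many others, and hubs are known to form where several enhancers lie near a strongly used promoter. In most colorectal cancers WNT signalling is always on, and the genes it turns on include its own inhibitors, among them AXIN2, NKD1 and APCDD1. Anchor coordinates are in the hg19 build. No hg19 gene annotation was used, so genes are named from general knowledge of their hg19 positions, and a region is called by the best-known gene in or beside it, with no claim that this gene is the one contacted. The planned gene lists and the check of colorectal epithelial markers were therefore not run. Of those markers, KRT8, a keratin of simple epithelia, is known to lie at an anchor in both leading sets. The other markers were not assessed, so KRT8 is no check of cell identity.

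Promoters of genes at or beside leading anchors are shown: ACTN4 at the first same-anchor rank, PHLDA1, GTF2IRD1 and APCDD1 at leading hubs, and EPHA2 beside the strongest anchor found in SW480 alone. Each is the 250 bases before the RefSeq start, 5′ to 3′ on the gene's strand. The positions are in GRCh38.p14, which differs from the anchors' build. Capitals mark matches on either strand to the GC box GGGCGG, to the AP-1 motif TGANTCA or to the TCF/LEF motif CTTTGAT. No matches of different motifs overlap in these stretches.
ACTN4, chr19:38647399-38647648, plus strand: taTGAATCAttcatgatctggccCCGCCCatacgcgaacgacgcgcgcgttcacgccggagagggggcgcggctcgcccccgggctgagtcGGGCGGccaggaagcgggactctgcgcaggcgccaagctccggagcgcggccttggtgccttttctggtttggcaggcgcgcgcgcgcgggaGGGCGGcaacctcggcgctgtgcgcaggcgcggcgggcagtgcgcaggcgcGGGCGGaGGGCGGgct
PHLDA1, chr12:76031777-76032026, minus strand: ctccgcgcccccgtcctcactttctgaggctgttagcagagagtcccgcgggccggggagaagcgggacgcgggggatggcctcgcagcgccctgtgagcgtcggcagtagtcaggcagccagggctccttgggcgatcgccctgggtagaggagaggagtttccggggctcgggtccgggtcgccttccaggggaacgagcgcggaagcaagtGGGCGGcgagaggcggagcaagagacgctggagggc
GTF2IRD1, chr7:74453656-74453905, plus strand: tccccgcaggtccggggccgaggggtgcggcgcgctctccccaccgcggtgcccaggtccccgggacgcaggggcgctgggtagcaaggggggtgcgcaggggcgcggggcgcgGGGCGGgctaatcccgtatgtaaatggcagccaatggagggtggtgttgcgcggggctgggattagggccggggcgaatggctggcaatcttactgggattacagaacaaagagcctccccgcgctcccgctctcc
APCDD1, chr18:10454385-10454634, plus strand: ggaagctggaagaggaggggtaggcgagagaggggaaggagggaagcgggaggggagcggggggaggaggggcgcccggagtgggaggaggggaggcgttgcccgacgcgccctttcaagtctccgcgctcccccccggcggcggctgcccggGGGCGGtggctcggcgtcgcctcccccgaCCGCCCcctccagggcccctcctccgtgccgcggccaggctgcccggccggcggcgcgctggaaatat
EPHA2, chr1:16156070-16156319, minus strand: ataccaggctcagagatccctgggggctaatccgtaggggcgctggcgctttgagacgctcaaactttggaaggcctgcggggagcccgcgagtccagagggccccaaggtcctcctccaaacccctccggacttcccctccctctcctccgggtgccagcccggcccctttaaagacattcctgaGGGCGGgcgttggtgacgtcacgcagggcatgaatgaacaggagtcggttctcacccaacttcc
ACTN4 had 5 GC box matches and 1 AP-1 match, APCDD1 had 2 GC box matches, and PHLDA1, GTF2IRD1 and EPHA2 had 1 each. None of the 5 held the TCF/LEF letters in this window. Among 35116 RefSeq promoters of the same length the GC box occurred in 42.6%, the AP-1 motif in 6.57% and the TCF/LEF motif in 2.26%. A match is a run of letters and not a site of binding.

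SW480 was the shallowest library. It held 130508 same-anchor PETs, and the other libraries held 844521 to 1386645. Its 7024 filtered loops held 13885 PETs, against 81579 to 222113 in the other libraries. The anchors of SW480 covered 65.6 Mb, against 127 to 160 Mb in the other lines. Rates below are PETs per 1000000 PETs of the same class in the library (PPM), and a count of 0 allowed up to 216 PPM of loop PETs in SW480 and 13.5 to 36.8 PPM in the others. The rates of a library sum to a fixed total and SW480 had the fewest anchors, so its mean same-anchor rate per anchor was the highest, and each count below stands beside the same count over all SW480 anchors with at least 10 PETs. Scaling by the PETs at anchors found in all 4 lines multiplied the folds by 0.553 to 0.636 for same-anchor PETs and by 0.575 to 0.619 for loop PETs. HCT116 and LS513 had 21810 anchors with identical coordinates, 99.5% of those of HCT116 and 98.5% of those of LS513, so the presence or absence of an anchor in these lines is 1 observation and not 2. SW480 shared 527 identical anchors with SW620, 5.64% of its own.

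Most leading loop hubs of SW480 lay near another one. The ranking itself favours this, since a strong loop counts at both of its anchors. No share over other SW480 anchors stands beside it. When anchors up to 500 kb apart were joined, the leading 100 gave 46 regions, of which 29 held 83 of the hubs and 17 held a single hub, and 27 hubs fell into 4 regions, at AXIN2, PHLDA1, APCDD1 and BMP4. The hub set was higher in SW480 (at least 2-fold above the highest of the other 3 lines, in PPM of loop PETs) at 72 of 100 anchors, and lower at 0 (at most 0.5-fold of the lowest). Over all 667 SW480 anchors with at least 10 loop PETs, 64.6% were higher and 0 were lower, so under this rule the 2 shares were close. Anchors missing in a line enter at the floor, and 19.6% of all lacked an HCT116 anchor, against 5% of the leading hubs. Among members with an anchor in all 3 other lines, 67 of 86 leading hubs (77.9%) were higher, beside 58.6% of 490 anchors. This restriction was chosen after seeing the data. With the scaling on shared anchors, 47 leading hubs were higher and 0 lower, beside 45.3% and 0.45% of all, and per kb of anchor 78 were higher, beside 73.8%. The median fold over the highest other line was 3.28 for the leading hubs and 2.99 for all. No line had a second library, so no difference has a replicate check, and intervals cover counting error only and treat PETs as independent molecules. Leading hubs were chosen by their SW480 level, which by itself raises SW480 folds. Of the leading 100 hubs of the other lines, SW480 had an anchor at 77 for LS513, 78 for HCT116 and 78 for SW620. At those places the median fold of SW480 was 0.693 over LS513, 0.847 over HCT116 and 1.33 over SW620. Over all 100, with missing anchors at the floor of 3 counts, it was at most 0.539, 0.588 and 0.560 over LS513, HCT116 and SW620.

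**Figure D1:**
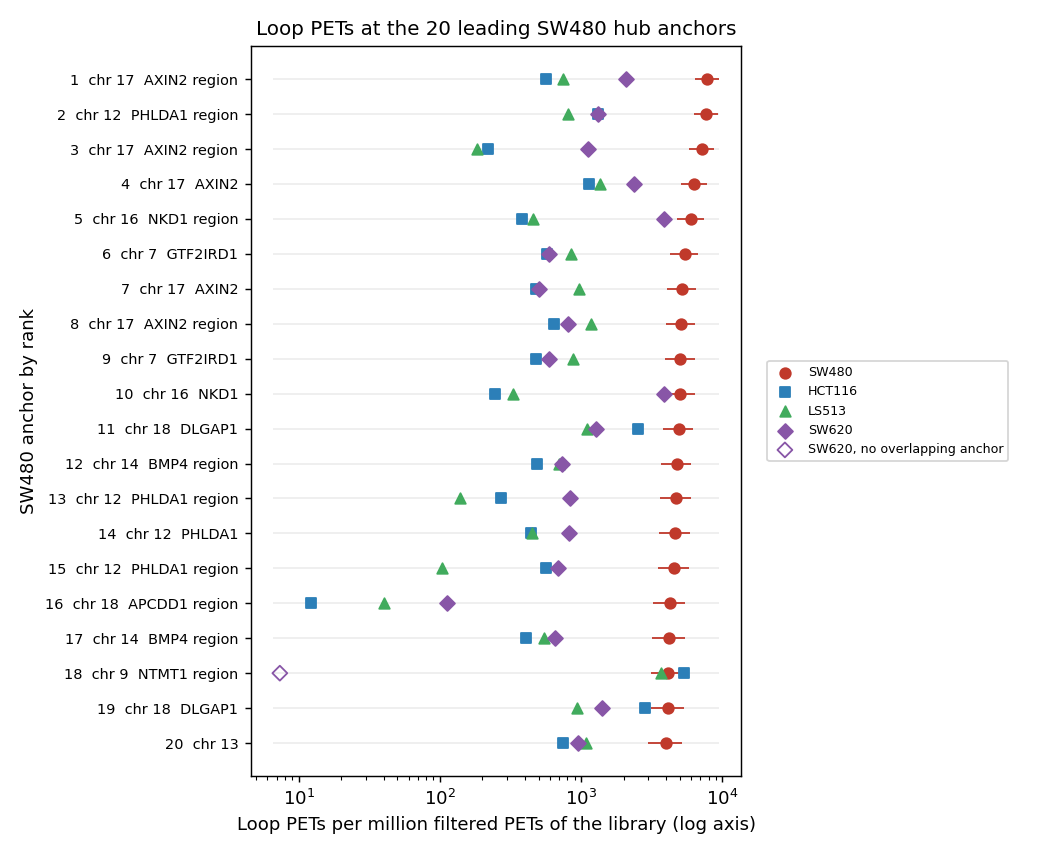
Loop PETs in PPM of filtered PETs (log axis) at the 20 leading SW480 hub anchors, by rank from the top, with SW480 as circles with exact Poisson 95% bars and HCT116, LS513 and SW620 as squares, triangles and diamonds summed over overlapping anchors; the open diamond marks an anchor with no overlap in SW620. SW480 was the highest of the 4 lines at 19 of the 20, beside 89.955% of all SW480 anchors with at least 10 loop PETs. The APCDD1 anchor at rank 16 stood farthest from the other lines, and at the NTMT1 anchor of rank 18 HCT116 was higher.

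AXIN2 encodes a scaffold of the complex that destroys beta-catenin, and its region held 10 of the 100 leading hubs, between 63272045 and 63788133 on chromosome 17. The first hub of SW480, 63573781 to 63609729, upstream of the gene, held 109 loop PETs with 18 partners in SW480 (7850.2 PPM), against 46 in HCT116 (564 PPM), 166 in LS513 (747) and 316 in SW620 (2073). SW480 was 3.79-fold above SW620, the next line (95% interval 3.02 to 4.72). The anchor known to hold the AXIN2 start, 63551487 to 63562753, took rank 4 with 88 PETs and 15 partners in SW480 (6338 PPM), against 93 in HCT116 (1140 PPM), 300 in LS513 (1351) and 362 in SW620 (2375). Its fold over SW620 was 2.67 (2.09 to 3.38), the smallest among the region's 5 anchors in the leading 20, and 1.65 with the scaling on shared anchors. These 2 anchors were each other's main partner, joined by 42 PETs, which were 38.5% of the loop PETs of the first and 47.7% of those of the start.

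The third hub, 63675064 to 63722234, inside the neighbouring gene CEP112, held 99 loop PETs in SW480 (7130 PPM), against 18 in HCT116 (221 PPM), 41 in LS513 (185) and 170 in SW620 (1115). Its folds of 32.3 over HCT116 and 38.6 over LS513 were the largest among the region's 10 anchors, and its fold over SW620 was 6.39. The anchor of rank 7, 63507415 to 63534971, held 72 PETs and 19 partners in SW480, the most partners of any leading hub, against 39 PETs for HCT116, 213 for LS513 and 77 for SW620. At 63272045 to 63299439, far downstream, SW480 held 71 PETs, against 52 for HCT116, 263 for LS513 and 123 for SW620. The other 5 held 38 to 53 loop PETs in SW480, and their folds over the highest other line ran from 2.54 to 7.20. All 10 anchors of the region were thus higher in SW480 than in the other 3 lines by the 2-fold rule, as were 64.6% of all SW480 anchors with at least 10 loop PETs. With the scaling on shared anchors the start anchor fell below the rule, as given above. The 10 are not separate observations, since a loop between 2 of them counts at both. Over the whole region 369 loop PETs in 90 loops lay in SW480 (26575 PPM), against 223 in HCT116 (2734 PPM), 873 in LS513 (3930) and 812 in SW620 (5327). The fold was 4.99 over SW620 (4.40 to 5.65), and 3.24 when same-anchor PETs were included. The region held 27.7% of the loop PETs of chromosome 17 in SW480, against 2.63% for HCT116, 4.16% for LS513 and 5.22% for SW620, while the chromosome held 9.61%, 10.4%, 9.45% and 10.2% of all loop PETs in SW480, HCT116, LS513 and SW620.

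**Figure D2:**
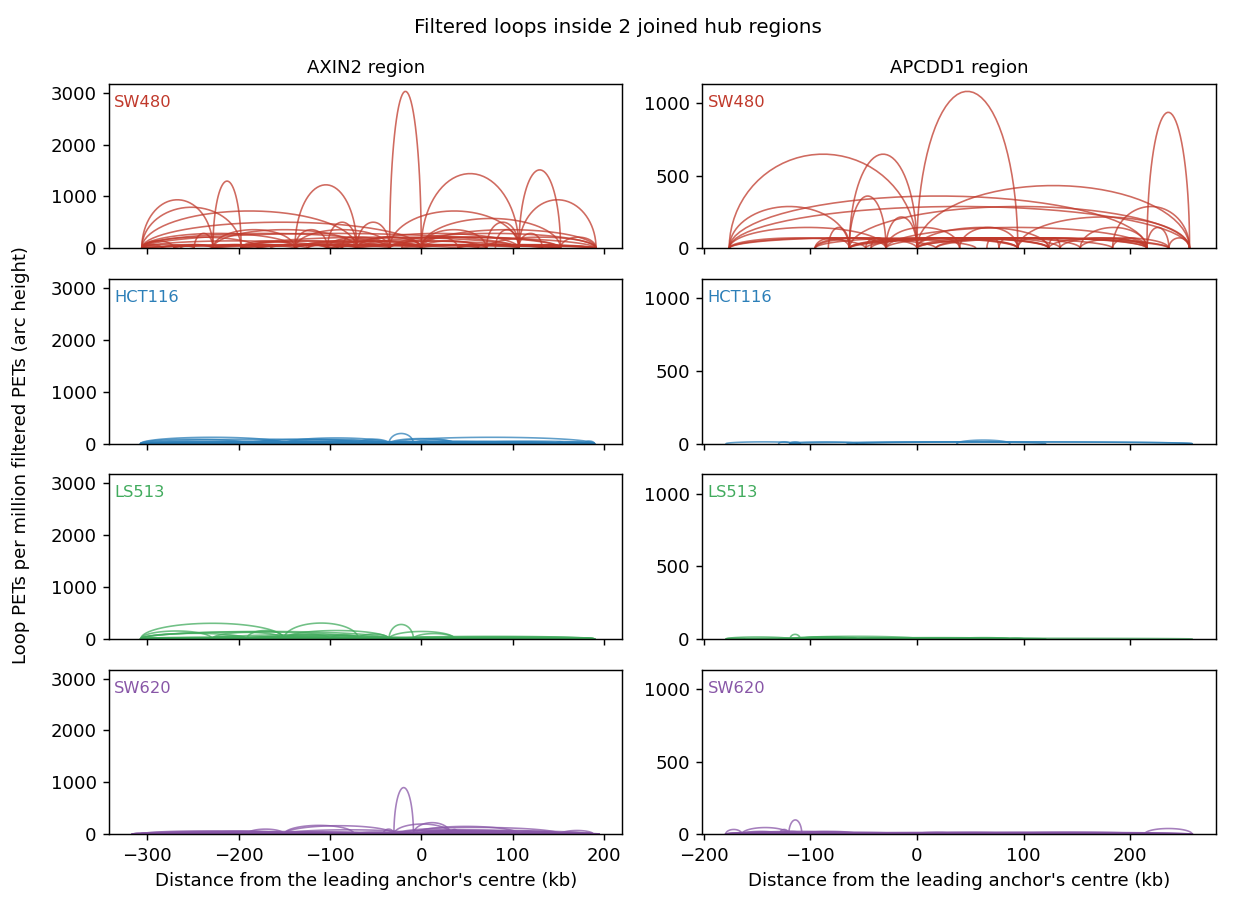
Filtered loops inside the AXIN2 region (left) and the APCDD1 region (right) in SW480, HCT116, LS513 and SW620 from top to bottom; the horizontal axis is the distance in kb from the centre of the region's leading SW480 anchor, and each arc joins 2 anchors with a height of its loop PETs in PPM. The tallest AXIN2 arc reached 3025 PPM in SW480 and the tallest arcs of the APCDD1 region stood in SW480, with arcs near the axis in HCT116 and LS513.

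The PHLDA1 region on chromosome 12, 76020822 to 76431165, held 7 leading hubs. PHLDA1 encodes a pleckstrin homology-like protein, known as a gene that growth factor signalling through ERK turns on. The second hub of SW480, 76336732 to 76382021, held 107 loop PETs with 15 partners (7706 PPM), against 108 in HCT116 (1324 PPM), 179 in LS513 (806) and 200 in SW620 (1312). HCT116 and SW620 were close to each other there, and SW480 was 5.82-fold above HCT116 (4.41 to 7.68). The anchor known to hold the start, 76399838 to 76431165, whose promoter is shown above, took rank 14 with 64 PETs and 18 partners in SW480 (4609 PPM), against 36 in HCT116 (441 PPM), 99 in LS513 (446) and 126 in SW620 (827). Ranks 13 and 15, at 76020822 to 76062653 and 76093902 to 76123045, held 65 and 63 PETs in SW480, and their folds over SW620, the highest other line at both, were 5.57 and 6.59. The region held 250 loop PETs in SW480 (18005 PPM), against 120 in HCT116 (1471 PPM), 178 in LS513 (801) and 413 in SW620 (2710). The order of the other lines was SW620, HCT116 and LS513, and SW480 was 6.64-fold above SW620 (5.66 to 7.79). The smallest fold among the 7 anchors was 4.36. Only 1 of them, 76152790 to 76164419, had no anchor in HCT116 and LS513.

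Among the leading hubs, the widest difference in PPM between SW480 and the other lines lay on chromosome 18 at APCDD1. This gene encodes a membrane-bound inhibitor of WNT signalling. The region, 10002054 to 10468187, held 6 leading hubs. At rank 16, 10184804 to 10209527, SW480 held 59 loop PETs with 15 partners (4249 PPM), against 1 in HCT116 (12.3 PPM), 9 in LS513 (40.5) and 17 in SW620 (112). The fold over SW620 was 38.1 (21.9 to 69.7), the largest among the leading 100 hubs, and 99.3% of all SW480 anchors with at least 10 loop PETs had a smaller fold over their highest other line. At rank 49, 10437668 to 10468187, the anchor known to hold the APCDD1 start, SW480 held 38 PETs (2737 PPM), against 2 in HCT116 (24.5 PPM), 1 in LS513 (4.50) and 18 in SW620 (118). SW480 stood 23.2-fold above SW620 (12.9 to 43.1) there. At rank 98, 10278120 to 10305463, SW480 held 27 PETs, against 2 for HCT116, 10 for LS513 and 9 for SW620. At rank 69, 10401161 to 10424797, SW480 held 33 PETs, against 16 in SW620, and HCT116 and LS513 had no anchor. These 4 anchors were among the 5 leading hubs whose folds had the highest lower bounds, and the remaining one was at PPFIBP1. At ranks 16, 49, 98 and 69 the SW480 anchors were 24.7, 30.5, 27.3 and 23.6 kb long. Overlapping SW620 anchors summed to 6.62, 4.13, 7.075 and 6.24 kb. Those of HCT116 and LS513 summed to 5.95, 3.82 and 7.89 kb at ranks 16, 49 and 98. Per PETs of the same chromosome the folds over SW620 were 11.3, 6.89, 9.78 and 6.73. The part of anchor length in these folds was not tested.

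In the whole APCDD1 region 131 loop PETs lay in SW480 (9435 PPM), against 9 in HCT116 (110 PPM), 40 in LS513 (180) and 104 in SW620 (682). The folds were 85.5 over HCT116 (43.7 to 191), 52.4 over LS513 (36.5 to 76.6) and 13.8 over SW620 (10.6 to 18.1). With same-anchor PETs included the fold over SW620 was 10.8 (9.57 to 12.2). Chromosome 18 as a whole moved in the same direction and held 2.67% of the loop PETs in SW480, against 0.895% for HCT116, 0.760% for LS513 and 0.794% for SW620. Within the chromosome the region held 35.3% of the loop PETs in SW480, against 1.23% for HCT116, 2.37% for LS513 and 8.60% for SW620.

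The region between BMP4, which encodes a bone morphogenetic protein ligand, and CDKN3 on chromosome 14 held 4 leading hubs, 54566436 to 54817128. Rank 12, 54622584 to 54665423, held 66 loop PETs and 17 partners in SW480 (4753 PPM), against 40 in HCT116 (490 PPM), 155 in LS513 (698) and 111 in SW620 (728). Rank 17, 54566436 to 54590604, held 58 in SW480 (4177 PPM), against 33 in HCT116 (405 PPM), 121 in LS513 (545) and 99 in SW620 (650). At both the other 3 lines lay between 405 and 728 PPM, and SW480 was 6.53-fold and 6.43-fold above SW620. The region as a whole held 117 loop PETs in SW480 (8426 PPM), against 28 in HCT116 (343 PPM), 81 in LS513 (365) and 169 in SW620 (1109), a fold over SW620 of 7.60 (5.95 to 9.68).

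NKD1, a further WNT feedback gene that acts on the signalling protein Dishevelled, gave a hub that SW480 and SW620 had in common. At rank 5, 50477708 to 50515857 on chromosome 16, upstream of the gene, SW480 held 83 loop PETs with 4 partners (5978 PPM), against 31 in HCT116 (380 PPM), 101 in LS513 (455) and 585 in SW620 (3838). At rank 10, 50549546 to 50590722, the anchor known to hold the NKD1 start, SW480 held 70 PETs (5041 PPM), against 20 in HCT116 (245 PPM), 73 in LS513 (329) and 592 in SW620 (3884). The folds of SW480 over SW620 were 1.56 (1.22 to 1.96) and 1.30 (1.00 to 1.67), neither of which met the 2-fold rule. With the scaling on shared anchors they were 0.96 and 0.80. Over HCT116 they were 15.7 and 20.6, and over LS513 they were 13.2 and 15.3. The loop between these 2 anchors held 41 PETs in SW480. The region held 27.7% of the loop PETs of chromosome 16 in SW480, against 0.472% for HCT116, 0.504% for LS513 and 5.49% for SW620, while the chromosome held only 2.08% of all loop PETs in SW480, against 5.45%, 5.72% and 7.05% in HCT116, LS513 and SW620. Per PETs of the same chromosome, both NKD1 hubs therefore met the 2-fold rule, with folds over SW620 of 5.27 and 4.40.

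GTF2IRD1, a gene of a TFII-I-related transcription factor on chromosome 7, gave the strongest loop of SW480. Its anchors took rank 6, 73864149 to 73883980 at the start, and rank 9, 73886100 to 73900363 in the gene body. The first held 75 loop PETs in SW480 (5402 PPM), against 47 in HCT116 (576 PPM), 189 in LS513 (851) and 91 in SW620 (597). The other held 70 in SW480 (5041 PPM), against 39 in HCT116 (478 PPM), 194 in LS513 (873) and 91 in SW620 (597). Their folds over LS513, the highest other line, were 6.35 (4.79 to 8.34) and 5.77 (4.33 to 7.62). The loop between them made up 80.0% and 85.7% of their loop PETs. In SW620 1 anchor of 52.3 kb with 1099 same-anchor PETs covered both, so a loop between them could not be counted in SW620.

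The hubs at DLGAP1 and NTMT1 led in SW480 without meeting the 2-fold rule. DLGAP1, known for a scaffold protein of synapses, had 2 anchors in the leading 20 on chromosome 18. At rank 11, 3601148 to 3627176, SW480 held 68 loop PETs (4897 PPM), against 207 in HCT116 (2537 PPM), 245 in LS513 (1103) and 194 in SW620 (1273), and at rank 19, 3647025 to 3673783, it held 57 (4105 PPM), against 232 in HCT116 (2844 PPM), 207 in LS513 (932) and 215 in SW620 (1411). The folds over HCT116 were 1.93 (1.45 to 2.55) and 1.44 (1.06 to 1.94), and per PETs of the same chromosome they turned to 0.65 and 0.48. The chromosome 18 total in these last folds includes the APCDD1 region, which made up 35.3% of it in SW480, against 1.23% in HCT116. At rank 18, 132330879 to 132373540 on chromosome 9, beside the protein methyltransferase gene NTMT1, SW480 held 57 PETs (4105 PPM), against 439 in HCT116 (5381 PPM) and 823 in LS513 (3705), with no overlapping anchor in SW620. The fold was 0.76 over HCT116 (0.57 to 1.01) and 1.11 over LS513 (0.83 to 1.45). The 3 leading hubs with a fold under 1 over their highest other line were all in this region of chromosome 9. Rank 20, 44841682 to 44889174 on chromosome 13, held 55 PETs in SW480 (3961 PPM), with folds of 5.30 over HCT116, 3.64 over LS513 and 4.19 over SW620.

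The hubs of ranks 21 to 100 held 53 to 26 loop PETs in SW480. Among them, PPFIBP1, a liprin gene on chromosome 12, took rank 91, 27672661 to 27680284, with 27 PETs in SW480, against 4 for HCT116, 9 for LS513 and 18 for SW620. Its fold over SW620 was 16.5 (8.74 to 31.7). Of all SW480 anchors with at least 10 loop PETs, 90.9% had a smaller fold over their highest other line. The 5 leading hubs that stood close to all 3 other lines, chosen because the highest upper bound of their 3 folds was lowest, were at KRT8, at the nuclear long noncoding RNA genes MALAT1 and NEAT1, at the corepressor gene IRF2BP2 and at 232524504 to 232541900 on chromosome 2. KRT8 held 28 loop PETs in SW480 (2017 PPM), against 127 in HCT116 (1557 PPM), 355 in LS513 (1598) and 167 in SW620 (1096), with a fold of 1.26 over LS513 (0.83 to 1.86). IRF2BP2 had 1.52 over LS513, NEAT1 2.20 over SW620, MALAT1 2.14 over LS513 and the chromosome 2 anchor 1.45 over LS513. NEAT1 and MALAT1 were thus higher in SW480 by the rule, while the other 3 were not, although IRF2BP2 reached 2.11 per PETs of the same chromosome. With the scaling on shared anchors the smallest folds of NEAT1 and MALAT1 were 1.30 and 1.23, below the rule.

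Over the 29 joined regions with at least 2 leading hubs the median loop fold of SW480 was 9.72 over HCT116, 7.998 over LS513 and 6.03 over SW620, and 23 of the 29 were higher by loop PETs. In several of them another line had at most 1 anchor, so no loop could be counted and its fold rests on the floor. At GTF2IRD1, with 1 SW620 anchor, this fold was 219.5 over SW620. Such folds are part of the medians. No share over other SW480 regions stands beside these counts. The 17 regions with a single hub had no SW480 loop inside and were left out. When all same-chromosome PETs between anchors centred inside a region were compared, 16 of the 29 were higher and the medians were 4.49, 3.27 and 3.1999 over HCT116, LS513 and SW620. With anchors that overlap the region in place of those centred inside it, 22 were higher by loop PETs and 16 by all same-chromosome PETs. Hub PETs in the other lines were summed over every anchor overlapping the SW480 anchor, so a loop between 2 of those counted at both. The median number of partners of a leading hub was 8, against 2 over the 6116 SW480 anchors with a loop. This follows from the ranking, since Spearman's rho of loop PETs with partners was 0.96 over all SW480 anchors. Of the leading hubs 17 lay on chromosome 12, 17 on chromosome 17, 9 on chromosome 18 and 7 on chromosome 14. Those chromosomes held 6.49%, 5.65%, 1.83% and 3.34% of all SW480 anchors.

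Same-anchor PETs ranked a partly different set of loci, led by ACTN4, HNRNPUL1 and BCL2L1. Of the leading 100, 52 were higher in SW480 than in all 3 other lines and 0 were lower. Among all 3543 SW480 anchors with at least 10 same-anchor PETs, 44.5% were higher and 0.819% lower. Of all, 28.9% lacked an HCT116 anchor, against 5% of the leading 100. Among members with an anchor in all 3 other lines, 42 of 84 leading sites (50%) were higher, beside 30.4% of 2326 anchors. With the scaling on shared anchors 18 of the leading 100 were higher and 0 lower, beside 26% and 2.4% of all, and per kb of anchor 68 were higher and 0 lower, beside 54.5% and 0.0282%. The median fold over the highest other line was 2.06 for the leading 100 and 1.82 for all. SW480 had the highest rate of the 4 lines at 95 of the 100, beside 77.2% of all anchors with at least 10 same-anchor PETs. The median leading anchor was 23.0 kb long, against 5.24 kb for all SW480 anchors, and Spearman's rho of same-anchor PETs with length was 0.56 over the 9350 anchors. Of the leading 100 same-anchor sites of the other lines, SW480 had an anchor at 77 for HCT116, 69 for LS513 and 85 for SW620, where its median fold was 1.18, 1.07 and 1.28 over HCT116, LS513 and SW620. Over all 100, with missing anchors at the floor, the medians were at most 0.832, 0.589 and 1.11.

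**Figure D3:**
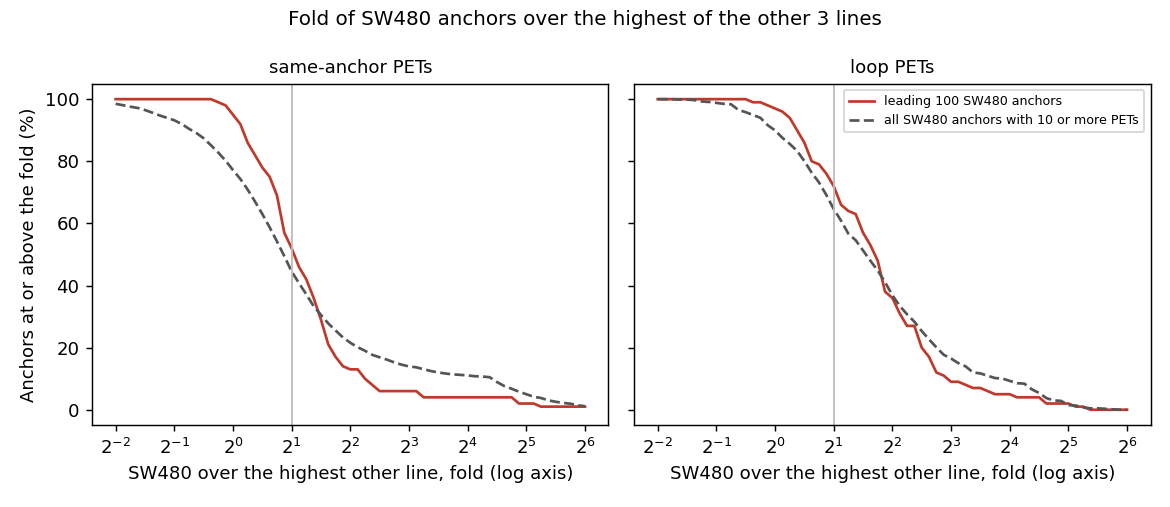
Share of SW480 anchors (%) at or above each fold of SW480 over the highest of the other 3 lines (log axis), for same-anchor PETs (left) and loop PETs (right); the solid line is the leading 100, the dashed line all SW480 anchors with 10 or more PETs, and the vertical line the 2-fold rule. At 2-fold the leading anchors stood at 52% and 72%, against 44.5% and 64.6% of all, from 2.83-fold upward the leading same-anchor curve ran below that of all anchors, and the leading loop curve did so from 3.67-fold to 29.3-fold. Anchors missing in a line stood at the floor. An HCT116 anchor was missing at 28.9% (same-anchor) and 19.6% (loop) of all anchors, against 5% of each leading set. The part of this in the order of the curves was not tested.

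ACTN4, an actin cross-linking protein, led the ranking. Its anchor on chromosome 19, 39137585 to 39181316, held 365 same-anchor PETs in SW480 (2797 PPM), against 867 in HCT116 (1005 PPM) and 1088 in LS513 (785), with no overlapping anchor in SW620, whose nearest anchor lay 3.5 kb away. SW480 was 2.78-fold above HCT116 (2.46 to 3.15). HNRNPUL1, a gene of an RNA-binding protein on the same chromosome, held 355 at 41765840 to 41775146 in SW480 (2720.1 PPM), against 569 in HCT116 (659 PPM), 1362 in LS513 (982) and 733 in SW620 (868). Its fold over LS513 was 2.77 (2.46 to 3.11). BCL2L1, which encodes the survival protein BCL-XL, held 302 at 30280663 to 30312887 on chromosome 20 in SW480 (2314 PPM), against 660 in HCT116 (765 PPM), 863 in LS513 (622) and 803 in SW620 (951). The 3 leading genes were thus between 2.43-fold and 2.78-fold above the next line, and with the scaling on shared anchors these folds lay between 1.54 and 1.58.

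PRDM15, a zinc finger gene at 43296578 to 43302054 on chromosome 21, had a short anchor of 5.48 kb and a clearer gap. It held 296 same-anchor PETs in SW480 (2268 PPM), against 203 in HCT116 (235 PPM), 585 in LS513 (422) and 577 in SW620 (683), a fold over SW620 of 3.32 (2.88 to 3.83). The anchor of rank 12, 47314063 to 47326378 on chromosome 19, held 231 in SW480 (1770.0 PPM), against 87 in HCT116 (100.8 PPM), 298 in LS513 (215) and 437 in SW620 (517). Its fold over SW620 was 3.42 (2.90 to 4.02). Both kept a fold above 2 with the scaling on shared anchors, at 2.11 and 2.18.

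GPRC5A, an orphan receptor gene induced by retinoic acid, and NTSR1, the neurotensin receptor gene, took ranks 5 and 6. GPRC5A held 283 same-anchor PETs in SW480, against 610 for HCT116, 612 for LS513 and 607 for SW620, and was 3.02-fold above SW620 PPM. NTSR1 held 277 in SW480, against 479 for HCT116, 661 for LS513 and 893 for SW620, and was 2.01-fold above SW620 (1.75 to 2.30). The noncoding RNA gene LINC00511 held 246 in SW480 (1885 PPM), against 534 in HCT116 (619 PPM), 530 in LS513 (382) and 1393 in SW620 (1649). SW480 and SW620 were close there, with a fold of 1.14 (0.99 to 1.31). The body anchor of GTF2IRD1 (1.41-fold over SW620, where 1 anchor covers both SW480 anchors) also missed the 2-fold rule. EVA1C, a membrane protein gene, was at 2.50-fold over LS513.

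**Figure D4:**
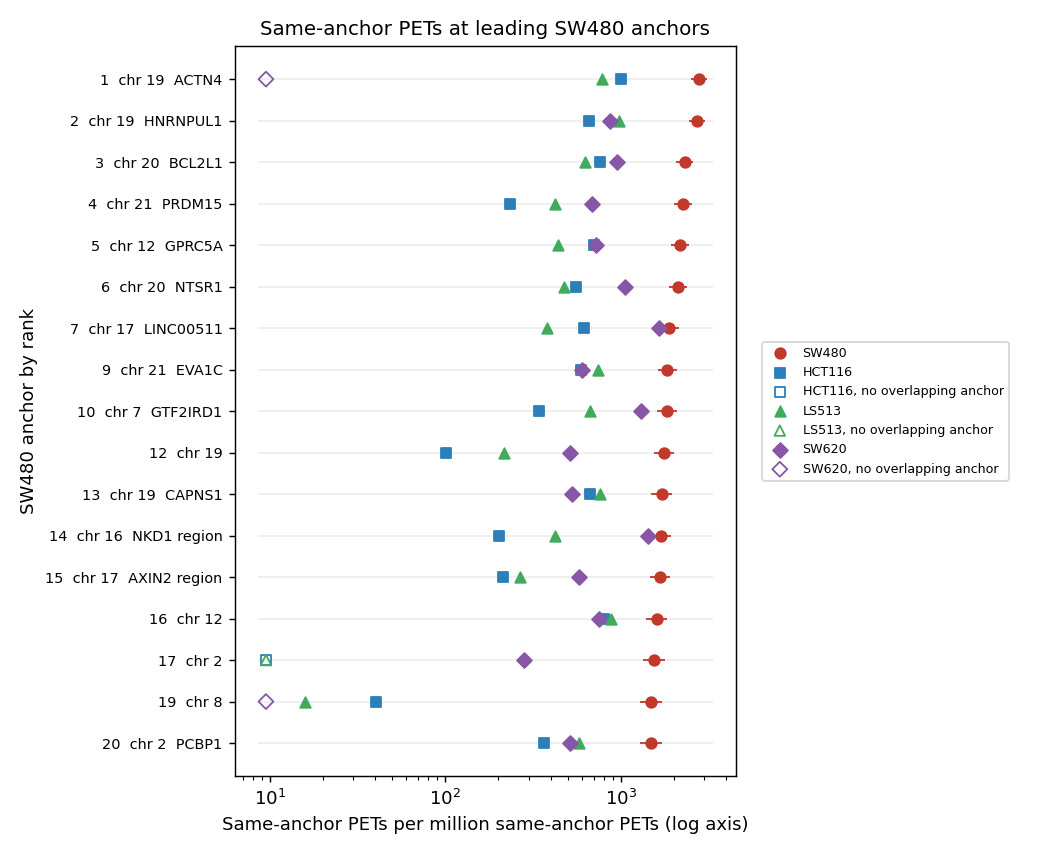
Same-anchor PETs in PPM (log axis) at 17 of the 20 leading SW480 anchors, by rank from the top, with SW480 as circles with exact Poisson 95% bars and HCT116, LS513 and SW620 as squares, triangles and diamonds; open symbols at the left mark lines with no overlapping anchor. SW480 was highest in all 17, as in 77.2% of all SW480 anchors with at least 10 same-anchor PETs. The anchor on chromosome 8 at rank 19 had 41 PPM or less in HCT116 and LS513 and no overlapping anchor in SW620.

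Between ranks 13 and 20, CAPNS1, the small calpain subunit gene, was 2.25-fold above LS513, and PCBP1, a gene of an RNA-binding protein, was 2.57-fold above it. The first AXIN2 hub held 219 same-anchor PETs in SW480 (1678 PPM), against 184 in HCT116 (213 PPM), 372 in LS513 (268) and 488 in SW620 (578), a fold over SW620 of 2.90 (2.46 to 3.41). The NKD1 anchor of hub rank 5 held 222 in SW480 (1701 PPM), against 174 in HCT116 (202 PPM), 586 in LS513 (423) and 1214 in SW620 (1437), a fold over SW620 of 1.18 (1.02 to 1.37). As with loop PETs, SW480 and SW620 stood together at NKD1 in PPM, and SW480 stood above SW620 at AXIN2. With the scaling on shared anchors these same-anchor folds over SW620 were 0.75 at NKD1 and 1.85 at AXIN2, below the 2-fold rule. Per PETs of the same chromosome the NKD1 fold over SW620 was 2.73, past the 2-fold rule, while the smallest folds of BCL2L1, NTSR1, EVA1C and PCBP1 fell below it, at 1.86, 1.87, 1.68 and 1.59. Rank 16, 122224895 to 122244454 on chromosome 12, was 1.81-fold above LS513. Rank 17, 27369918 to 27412744 on chromosome 2, held 202 in SW480 (1548 PPM), against 238 in SW620 (282 PPM), with no anchor in HCT116 and LS513.

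The 5 leading same-anchor sites whose folds had the highest lower bounds had 101 PPM or less in every other line with an overlapping anchor. Where a line had no anchor, no PETs could be counted. At rank 53, 16486729 to 16512726 on chromosome 1, upstream of the ephrin receptor gene EPHA2, SW480 held 152 same-anchor PETs (1165 PPM), and no other line had an overlapping anchor. The nearest anchor lay 17 kb away in each of the other lines. At rank 19, 128037170 to 128058092 on chromosome 8, SW480 held 195 (1494 PPM), against 35 in HCT116 (40.6 PPM) and 22 in LS513 (15.9), and the nearest SW620 anchor lay 746 kb away. This anchor had 0 filtered loops in SW480, one of 3 leading same-anchor sites without any. MYH7B, a myosin gene at 33549941 to 33577436 on chromosome 20, held 178 in SW480 (1364 PPM), against 20 in HCT116 (23.2 PPM) and 69 in LS513 (49.8), with no anchor in SW620. ASB4, an ankyrin repeat gene at 95113632 to 95146090 on chromosome 7, held 155 in SW480 (1188 PPM), against 11 in HCT116 (12.7 PPM), 7 in LS513 (5.05) and 36 in SW620 (42.6). Its fold over SW620 was 27.9 (19.3 to 41.2). At rank 94, 98482612 to 98511507 on chromosome 9, SW480 held 121, against 10 for HCT116, 21 for LS513 and 85 for SW620, a fold over SW620 of 9.21. In these 5 places the SW480 anchor was 20.9 to 32.5 kb long, and where other lines had anchors these were shorter, at most 20.4 kb in sum.

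The 5 leading same-anchor sites that stood close to all 3 other lines, by the same choice, were those of the stress-induced pseudokinase gene TRIB3, the tight junction gene CLDN4, the beta-catenin cofactor gene BCL9L, 132238487 to 132265656 on chromosome 9 and 13948029 to 13963619 on chromosome 19. TRIB3 held 129 same-anchor PETs in SW480 (988 PPM), against 1084 in HCT116 (1256 PPM), 1190 in LS513 (858) and 562 in SW620 (665). Its anchor was 7.11 kb long in SW480 and 33.8 kb in HCT116 and LS513, and its fold over HCT116 was 0.79 (0.65 to 0.95). The chromosome 9 anchor held 164 in SW480 (1257 PPM), against 1149 in HCT116 (1331 PPM), 1726 in LS513 (1245) and 833 in SW620 (986), a fold of 0.94 over HCT116. CLDN4 had a fold of 1.56 over LS513 (1.32 to 1.83), BCL9L of 1.26 over SW620 (1.05 to 1.50) and the chromosome 19 anchor of 1.10 over SW620 (0.94 to 1.29). In all, 5 of the 100 leading sites had a fold under 1 over their highest other line. Besides TRIB3 and the chromosome 9 anchor these were 68062705 to 68085585 on chromosome 11 (0.86), the DLGAP1 anchor of hub rank 11 (0.93) and the GTF2IRD1 start anchor (0.95).

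The 2 rankings overlapped in part. Of the 20 leading hubs, 14 were also among the 100 leading same-anchor sites, and of the 20 leading same-anchor sites 8 were among the 100 leading hubs. The 3 anchors in both leading 20 were the first AXIN2 hub, the upstream NKD1 anchor and the GTF2IRD1 body anchor. ACTN4 had 9 loop PETs and ranked 776 by loop PETs, and PRDM15 had 3. Over the 9350 SW480 anchors, those without a loop included, Spearman's rho between the rankings was 0.42, as a description of anchors that share a library and whose length went with both counts. The leading 100 held 12.9% of the same-anchor PETs and 15.5% of the loop ends of the library.

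A loop of SW480 can be counted in another line only where that line has separate anchors at both ends. Of the 7024 SW480 loops, 46.9% had loop PETs between overlapping anchors in SW620, 35.7% in LS513 and 29.3% in HCT116. An end without any anchor accounted for 29.9% of the loops in SW620, 50.5% in LS513 and 50.6% in HCT116. Both ends fell in 1 anchor for 4.33% in SW620, 1.95% in LS513 and 1.96% in HCT116. In the remaining 18.9%, 11.9% and 18.1% of SW620, LS513 and HCT116, separate anchors were present and held 0 loop PETs.

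**Figure D5:**
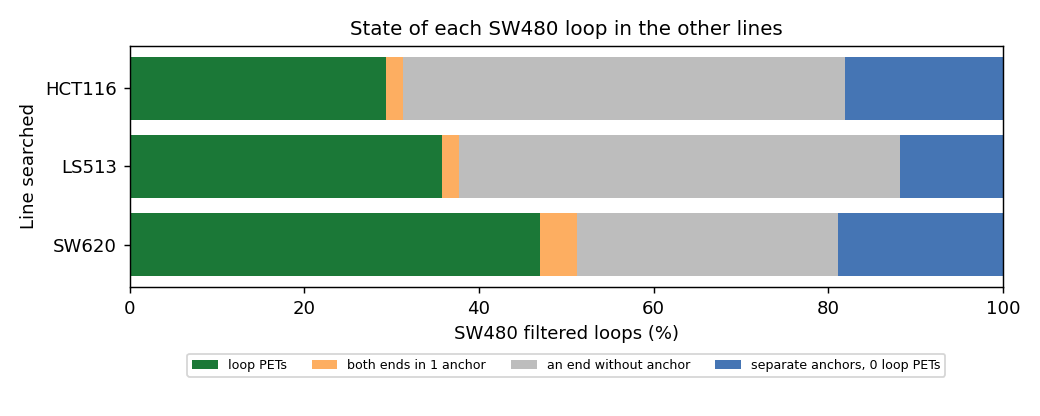
State of the 7024 SW480 filtered loops in HCT116, LS513 and SW620, as stacked shares (%) of loops: loop PETs between overlapping anchors, both ends in 1 anchor, an end with no overlapping anchor, and separate anchors with 0 loop PETs. Loops with PETs were 29.3%, 35.7% and 46.9% in the 3 lines, and the grey share without an anchor was the widest in HCT116 and LS513.

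Among the 20 strongest SW480 loops, SW620 held loop PETs at 14, had both ends in 1 anchor at 2 and lacked an anchor at 4, and it had none with separate anchors and 0 PETs. HCT116 held loop PETs at 15 and LS513 at 16, both had 3 loops with the ends in 1 anchor, and 2 in HCT116 and 1 in LS513 had separate anchors and 0 PETs. The loop of rank 5, 47294349 to 47326378 on chromosome 19, held 32 PETs in SW480 (2305 PPM), against 0 in HCT116 with separate anchors, 1 in LS513 (4.50 PPM) and 48 in SW620 (315). The loop of rank 9, 69628971 to 69712234 on chromosome 11 near the fibroblast growth factor gene FGF3, held 27 in SW480 (1945 PPM), against 0 in HCT116 with separate anchors, 2 in LS513 (under 10 PPM) and 98 in SW620 (643). Both were loops of SW480 and SW620 that HCT116 and LS513 barely held. The loop of rank 4, 17507969 to 17564606 on chromosome 1 at PADI1, which encodes an enzyme that converts arginine to citrulline in proteins, held 36 in SW480 (2593 PPM), against 84 in SW620 (551 PPM). In HCT116 and LS513 both of its ends lay in 1 anchor.

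Anchors found in SW480 alone numbered 1817, which was 19.4% of its anchors, and they held 8.09% of its same-anchor PETs (exact Clopper-Pearson 95% interval 7.94 to 8.24). They were short, with a median of 4.11 kb and 3 same-anchor PETs, against 5.54 kb and 7 PETs for the rest, and 307 of them had at least 10 PETs. Of all SW480 anchors, 25.9% had no overlapping anchor in SW620, 43.9% none in HCT116 and 43.7% none in LS513. In the leading 100 same-anchor sites these counts were 12 for SW620 and 5 each for HCT116 and LS513. The share of anchors found in SW480 alone was 33.3% on chromosome 18 and 29.1% on chromosome 7, and 4.14% on chromosome 22 and 5.22% on chromosome 19. The 5 strongest were the EPHA2 anchor with 152 same-anchor PETs, 219952157 to 219986333 on chromosome 1 with 110, 129275454 to 129300523 on chromosome 9 with 107, and 42274404 to 42291493 and 130592907 to 130610291 on chromosome 7 with 89 each. The anchor at 42274404 lies beside GLI3, a transcription factor gene of Hedgehog signalling, 528 kb from the nearest HCT116 anchor and 32.9 kb from the nearest SW620 anchor.

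Conversely, 14608 SW620 anchors overlapped anchors of both HCT116 and LS513, and 9972 of these places (68.3%) had no SW480 anchor. They were weaker in SW620 than places with one, with a median of 16.6 against 43.8 PPM of same-anchor PETs, and of the 100 strongest places 16 lacked an SW480 anchor. The strongest was at GMEB2, a DNA-binding protein gene on chromosome 20, 62256297 to 62261235, where SW480 had no anchor within 206 kb, and where HCT116 held 746, LS513 909 and SW620 1306 PPM of same-anchor PETs. The places ranked 2 to 10 included the starts of SLC3A2 (amino acid transporter subunit), YWHAZ (a 14-3-3 protein), GSPT1 (translation termination), MAFG (a small MAF transcription factor) and NOTCH1 (the Notch receptor), and the cell death gene BAD. At BAD an SW480 anchor lay 2.23 kb away and at MAFG 7.71 kb away, while at GSPT1 the nearest was 238 kb away and at NOTCH1 51.6 kb. The others were 73884955 to 73898232 on chromosome 17, 150772787 to 150793928 on chromosome 7 and 60454851 to 60460170 on chromosome 5. The share of places without an SW480 anchor was 79.2% on chromosome 19 and 78.2% on chromosome 16, and 55.7% on chromosome 13. An anchor that is not listed in SW480 can be a place below the depth of this library, and its part in these shares was not tested.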

How the data were processed

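The authors deposited whole-number counts of PETs per pair of anchors for each library: a table for each chromosome's own pairs, which also lists anchors joined to themselves, a filtered version of it, and a table for pairs between chromosomes. A further deposited table repeats the filtered counts with a value between 0 and 1, taken as a p-value adjusted by the authors for false discovery, in a column without a header. HiC-Pro and hg19 (GRCh37) come from the submitters' processing notes, and cells were fixed in 1% formaldehyde for 10 minutes, per the labels' protocols. How anchors, peaks and loops were called is not given in the sources used here.

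Chromosomes 1 to 22 and X were used. PETs at overlapping anchors (at least 1 bp) of another line were summed and set per 1000000 PETs of the same class in that library, and a loop counted at both of its anchors. No significance test was made, since each line had 1 library. The fold of SW480 was taken over the highest of the other 3 lines (2 or more: higher) and over the lowest (0.5 or less: lower), with a count of 0 set to a floor of 3 counts. An anchor missing in a line was treated as 0. Intervals of ratios are exact conditional Clopper-Pearson 95% intervals. The overlap step was tested on random segments. Fold calls and intervals were tested on simulated same-anchor counts, with the same anchors in every line. Loop hubs, joined regions and missing anchors were not simulated. The tools were scipy 1.17.1, pandas 2.3.3 and numpy 2.4.6 in Python 3.11.15, with figures from matplotlib 3.10.9. Promoters come from RefSeq tables of GRCh38.p14, which held 27 of 35 symbols looked up. The anchors described, the rule and the lists were chosen with earlier results of these data known. Named anchors are the leading 20 of each ranking (3 by same-anchor PETs are not reported here), the 5 highest and 5 lowest by interval bound in each leading 100, the 5 strongest found in SW480 alone and the 10 strongest places missing in SW480. FGF3, PADI1 and the loops named beside them were chosen after their values were seen. Alternatives covered scaling, overlap, anchor length, set size, fold, ranking and loop filters.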

Additional observations from a re-analysis of the deposited data

How the results depend on the processing

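With rates scaled on anchors overlapping in all 4 lines, the leading same-anchor sites called higher went to 18 of 100, against 52 as reported, and the hubs to 47, against 72. A 3-fold rule gave 22 same-anchor sites. The other 9 of 11 same-anchor alternatives gave 49 to 73 per 100, and 18 of 19 hub alternatives gave 55.2 to 82. The share of anchors found in SW480 alone was 12.3% after anchors were extended by 5 kb and 11.7% for anchors with at least 10 same-anchor PETs, against 19.4%. The share of places missing in SW480 ran from 59.4% to 75.3%. Restriction to members with an anchor in all 3 other lines left 42 of 84 same-anchor sites (50%) and 67 of 86 hubs (77.9%) higher, beside 30.4% of 2326 and 58.6% of 490 anchors. This restriction and the joined regions were chosen after seeing the data. No paired analysis was possible because each line has 1 library and the labels give no replicate number. Depth limits SW480 most, where 3 counts are 216 loop PETs per 1000000.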
